A study of Homo sapiens with 29 samples.

Results

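The genes described here are those of oxidative phosphorylation whose symbols begin with NDUF, UQCR, SDHA to SDHD, COX with a digit, or ATP5. The array's probe table holds 41 such symbols, and 1 of them, the pseudogene UQCRBP1, was left out. That gives 40 of the 14884 genes named in the table: 37 protein-coding genes and 3 non-coding RNA genes, COX10-DT, NDUFA6-DT and NDUFB2-AS1. Each gene stands for 1 probe set, the one with the highest mean over all arrays. Total RNA of HepG2, a human liver cancer cell line, was measured on 29 Affymetrix expression arrays. Cells were either untreated, at 0, 6, 12, 18, 24 and 48 h, or treated with CCL, which the series title ties to the plant Cratoxylum cochinchinense Lour, at 6, 12, 18, 24 and 48 h. The labels give no dose and no vehicle, so CCL and what it was dissolved in cannot be told apart. The untreated groups hold 2 arrays at 0 h, 3 at 6 h, 3 at 12 h, 2 at 18 h, 3 at 24 h and 3 at 48 h, and the CCL groups hold 3, 3, 3, 2 and 2 arrays at 6, 12, 18, 24 and 48 h. Arrays carry a set number from 1 to 3. Set 2 is missing from untreated cells at 18 h, and set 3 is missing from the CCL groups of 24 h and 48 h.

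In oxidative phosphorylation, electrons from NADH and succinate enter the inner mitochondrial membrane through complexes I and II, pass through complex III (cytochrome bc1) and cytochrome c to complex IV (cytochrome c oxidase), and the proton gradient built on the way drives complex V (ATP synthase). Each complex is put together with the help of assembly factors, which insert cofactors such as flavin, iron-sulfur clusters, haem and copper, and are not part of the finished enzyme. A few core subunits are encoded in mitochondrial DNA and the rest in the nucleus. Liver cells are rich in mitochondria, while many cultured cancer lines also draw much of their ATP from glycolysis.

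The genes measured do not cover the whole chain. None of the 37 nuclear complex I subunits listed and none of the 4 complex II subunits had a named probe set, so NDUFS1, NDUFV1 and SDHA, SDHB, SDHC and SDHD were not analysed here. The same holds for UQCRFS1, NDUFA4, NDUFA4L2, ATP5F1A and ATP5F1B, and for the 13 protein-coding genes of mitochondrial DNA. What was measured were 5 of 9 complex III subunits, 17 of 19 complex IV subunits, 2 of 18 complex V subunits with the complex V inhibitor ATP5IF1, and 12 assembly factors of complexes I, II and IV. The results are therefore about complexes III and IV and assembly factors, more than about oxidative phosphorylation as a whole.

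Levels are the authors' deposited log2 values, and they were compared between arrays but not between genes, because each probe set binds with its own strength. Of the 40 genes, 26 lay above log2 5 on at least 2 arrays and were tested, and 14 did not. Of the 26, 14 were above that line on all 29 arrays. The subunits UQCRC2 and UQCRC1 (core proteins of complex III), COX4I1, COX5A, COX6A1 and COX8A had means above 8, from 8.02 for UQCRC1 to 10.18 for COX6A1. The genes left out include the tissue-restricted forms of complex IV subunits. COX7A1 and COX6A2, the forms of heart and skeletal muscle, had means of 2.86 and 3.04, and COX6B2, COX7B2 and COX8C, known from testis, had means of 2.90, 1.99 and 1.93. COX4I2, the form known from lung and from low oxygen, read 3.77. UQCRB, COX6C, COX7B, COX14, COX17, SDHAF4, COX10-DT and NDUFA6-DT also stayed under the line, with means from 3.03 for UQCRB to 4.20 for COX7B. A probe set this low may respond weakly, so these values do not show that the RNA is scarce. The probe sets of COX7A2 and UQCRB are listed against non-coding RefSeq transcripts of these genes. UQCRH and UQCRHL are near-identical copies whose signals the array may not separate, and their values are uncertain.

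**Figure D1:**
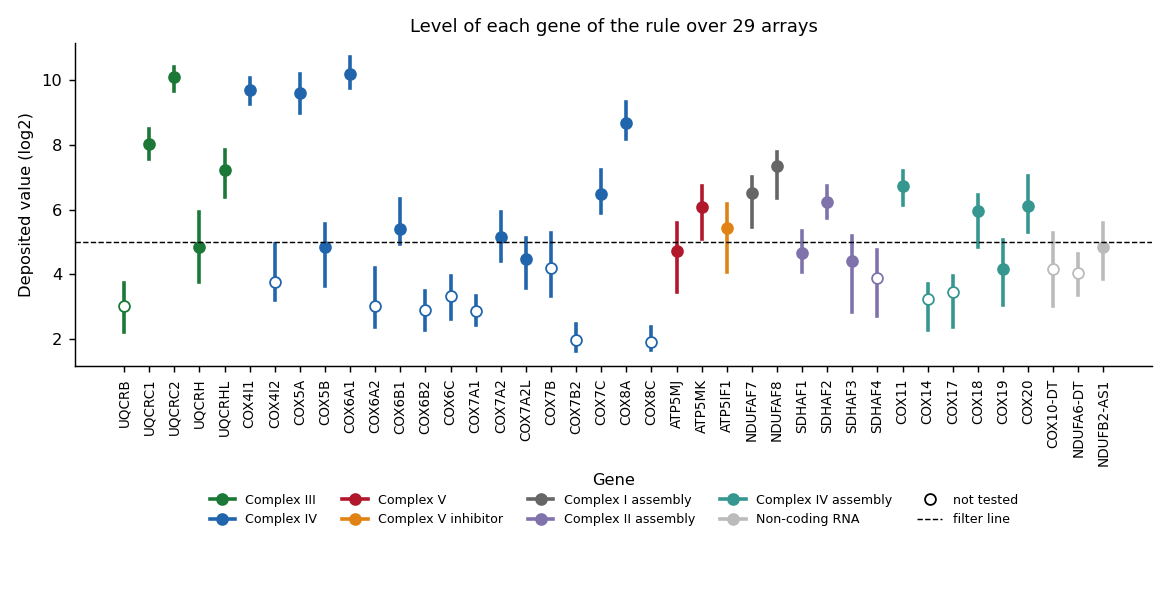
Deposited value (log2, vertical axis) of each of the 40 genes, with the mean over 29 arrays as a point and the lowest to highest array as a line, coloured by complex and role. Filled points mark the 26 genes tested and open points the 14 that were not above the dashed line at log2 5 on at least 2 arrays; the bright genes are subunits of complexes III and IV.

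The arrays differed before any gene was compared. The median over all 53617 probe sets ran from 2.29 to 3.39, and 6 arrays stood apart from the other arrays outside 12 h: untreated cells of set 1 at 18 h (2.29) and at 24 h (2.83), CCL-treated cells of set 1 at 6 h (2.65), 24 h (2.83) and 48 h (2.75), and CCL-treated cells of set 3 at 18 h (3.39). All 6 arrays of 12 h read from 2.51 to 2.54. The same shift reached the genes tested, whose median CCL minus untreated difference was 0.41 at 18 h and -0.26 at 48 h, so each difference is also given after quantile normalization where it matters. Of 11 liver and HepG2 markers, 9 were measured, with means from 7.15 for APOA1 to 11.93 for ALB. CD14, DCN, PECAM1 and VWF, markers of leukocytes, fibroblasts and endothelium, read 1.94 to 2.94, while LYZ, an enzyme of leukocytes, read 10.63. Nothing in the labels says that replicate arrays were grown apart, so the p-values speak of the spread among these arrays, which may be technical, and the small number of arrays limits the precision. In bulk RNA, fewer cells with a transcript and less of it per cell cannot be told apart.

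At no single time did any of the 26 genes pass the test in the main model (limma, adjusted p under 0.05 over the 6529 genes tested). That model has no term for set number. With set as a block some passed at 18, 24 and 48 h, as given in the closing section beside shares of all genes. The share of all genes that passed was 0.306% at 6 h, 1.24% at 12 h, 12.5% at 18 h, 3.02% at 24 h and 6.56% at 48 h. At an unadjusted p under 0.05, a looser threshold than that of these shares, 0, 2, 4, 1 and 3 of the 26 were counted at these times. The share of all genes at the unadjusted threshold is not given here, so these counts are not set against other genes. Averaged over the 5 times, 4 of the 26 genes passed, 1 higher and 3 lower in CCL-treated cells, where 24.6% of all genes passed, 13.6% higher and 11% lower. COX7A2, the gene of a complex IV subunit, rose, but its probe set is listed against a non-coding transcript and may not report the mRNA of the subunit. The complex II assembly factor SDHAF3, the ATP synthase inhibitor ATP5IF1 and the complex IV assembly factor COX11 fell. SDHAF3 passed the filter through untreated arrays alone, so the filter favoured its call. The median of the 26 mean differences was -0.02, beside 0.01 over all genes tested. So the genes passed no more often than other genes did. The mean of 5 differences, which draws on 13 CCL and 14 untreated arrays, is the only comparison of the main model in which any of them passed.

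**Figure D2:**
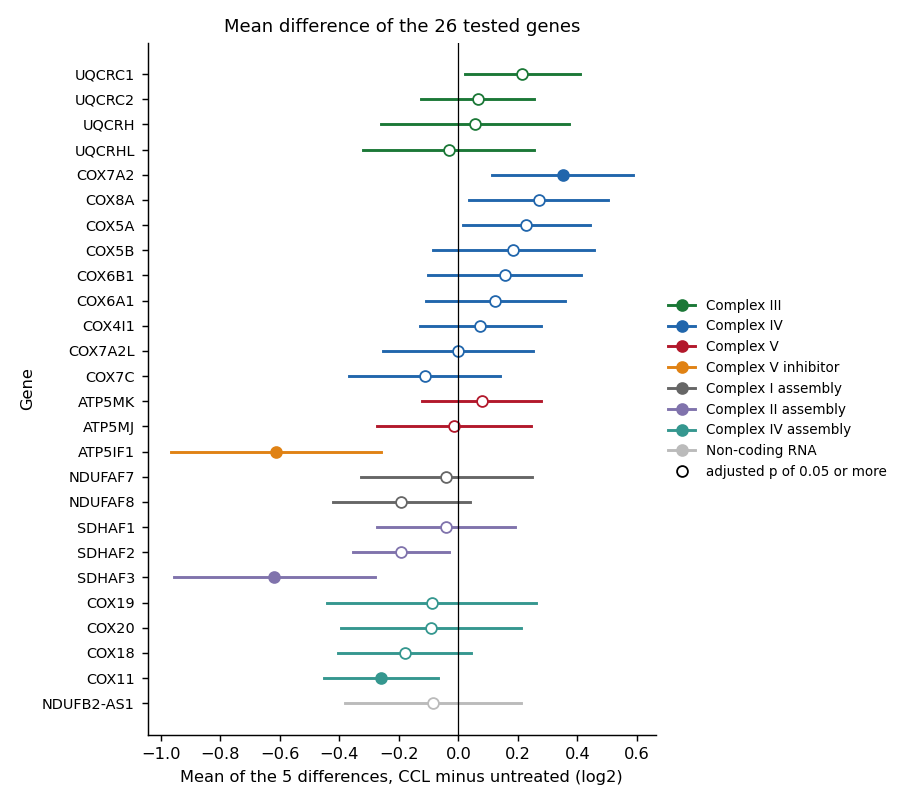
Mean of the 5 differences between CCL-treated and untreated cells (log2, horizontal axis) for the 26 genes tested, grouped by complex and role, with the 95% confidence interval as a line. Filled points mark the 4 genes with adjusted p under 0.05: COX7A2 at 0.35, COX11 at -0.26, ATP5IF1 at -0.61 and SDHAF3 at -0.62. All 9 assembly factors lie left of 0, among them SDHAF3, which passed the filter through untreated arrays alone.

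SDHAF3 is a small mitochondrial protein that helps the iron-sulfur subunit of complex II mature. In untreated cells its log2 values were 4.74 and 4.67 at 0 h, 4.66, 4.71 and 4.79 at 6 h, 4.04, 4.68 and 4.49 at 12 h, 3.64 and 4.95 at 18 h, 4.92, 5.06 and 5.08 at 24 h, and 4.80, 5.17 and 4.61 at 48 h. In CCL-treated cells they were 4.51, 4.31 and 4.71 at 6 h, 3.87, 3.80 and 3.49 at 12 h, 4.59, 4.50 and 4.0003 at 18 h, 3.31 and 4.56 at 24 h, and 2.84 and 4.50 at 48 h. The CCL arrays lay below all untreated arrays at 12, 24 and 48 h, and the arms overlapped at 6 and 18 h. SDHAF3 is a dim gene that was above log2 5 on 3 untreated arrays and on no CCL array, the one gene of the 26 that passed the filter through 1 arm alone, so the filter itself favoured genes with higher untreated values here. The differences were -0.21, -0.69, 0.07, -1.08 and -1.19 at 6, 12, 18, 24 and 48 h, and the mean of them was -0.62 ± 0.16 (SE, 0.650-fold, limma adjusted p = 0.00696). At 24 h and 48 h the lowest value was that of CCL set 1, an array whose median stands apart at both times. Without CCL set 2 the difference at 48 h was -2.02 and without CCL set 1 it was -0.36 (limma adjusted p = 0.000732 and 1.00). Each of these fits leaves 1 CCL array at 48 h, which is assumed to vary like the other groups.

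ATP5IF1 binds ATP synthase and keeps it from hydrolysing ATP when the proton gradient is lost. In untreated cells its log2 values were 5.61 and 6.04 at 0 h, 5.75, 5.65 and 5.92 at 6 h, 5.22, 5.10 and 5.30 at 12 h, 4.89 and 6.18 at 18 h, 5.43, 6.06 and 6.05 at 24 h, and 6.02, 5.98 and 6.15 at 48 h. In CCL-treated cells they were 4.47, 5.44 and 5.96 at 6 h, 4.70, 4.99 and 4.66 at 12 h, 5.24, 5.59 and 5.05 at 18 h, 4.72 and 5.43 at 24 h, and 4.09 and 5.72 at 48 h. The arms did not overlap at 12, 24 and 48 h, and at 6 and 18 h they did. At 24 h the arms nearly met, at 5.426 with CCL and 5.434 untreated. The differences were below 0 at all 5 times, at -0.48, -0.43, -0.24, -0.78 and -1.15, with a mean of -0.61 ± 0.17 (SE, 0.653-fold, limma adjusted p = 0.0101). As for SDHAF3, CCL set 1 was lowest at 24 h and 48 h. The difference at 48 h was -1.96 without CCL set 2 and -0.33 without CCL set 1 (limma adjusted p = 0.0016 and 1.00), again with a single CCL array left in each fit. Both genes kept their mean difference past the threshold when any 1 array was left out, SDHAF3 between -0.79 and -0.45 and ATP5IF1 between -0.78 and -0.45. Without the 6 arrays that stand apart the means were -0.43 for SDHAF3 and -0.44 for ATP5IF1, with limma adjusted p of 0.0053 and 0.0022.

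COX11 delivers copper to the catalytic core of complex IV. Its untreated log2 values were 6.84 and 6.87 at 0 h, 6.88, 6.66 and 6.86 at 6 h, 6.65, 6.86 and 6.74 at 12 h, 6.80 and 6.83 at 18 h, 6.68, 7.19 and 6.93 at 24 h, and 7.08, 6.86 and 6.73 at 48 h. With CCL they were 7.07, 6.63 and 6.47 at 6 h, 6.62, 6.52 and 6.15 at 12 h, 6.50, 6.67 and 6.96 at 18 h, 6.45 and 6.66 at 24 h, and 6.32 and 6.62 at 48 h. CCL arrays lay below all untreated arrays at 12, 24 and 48 h, although the nearest arrays of the arms lay close together. The mean difference of COX11 was -0.26 ± 0.09 (SE, 0.834-fold, limma adjusted p = 0.0436), close to the threshold. It lost the call in 18 of 27 fits that each left out 1 array, where adjusted p reached 0.102 (limma), with values from -0.30 to -0.23.

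COX7A2 encodes the form of complex IV subunit 7A found in liver and most tissues. Its untreated log2 values were 5.23 and 4.88 at 0 h, 5.12, 5.26 and 5.06 at 6 h, 4.69, 4.83 and 4.43 at 12 h, 4.63 and 5.08 at 18 h, 4.59, 5.56 and 5.21 at 24 h, and 5.21, 5.51 and 4.90 at 48 h. With CCL they were 5.53, 5.38 and 5.31 at 6 h, 5.02, 4.89 and 4.54 at 12 h, 5.61, 5.25 and 5.80 at 18 h, 5.93 and 5.26 at 24 h, and 5.26 and 5.45 at 48 h. CCL arrays lay above all untreated arrays at 6 and 18 h, and the arms overlapped at the other times. The mean difference of COX7A2 was 0.35 ± 0.12 (SE, 1.27-fold, limma adjusted p = 0.0273). The call was lost without untreated set 1 at 18 h (0.30), without untreated set 3 at 48 h (0.32) and without CCL set 1 at 24 h (0.28), and without the 6 arrays that stand apart the value was 0.17 (limma adjusted p = 0.278).

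**Figure D3:**
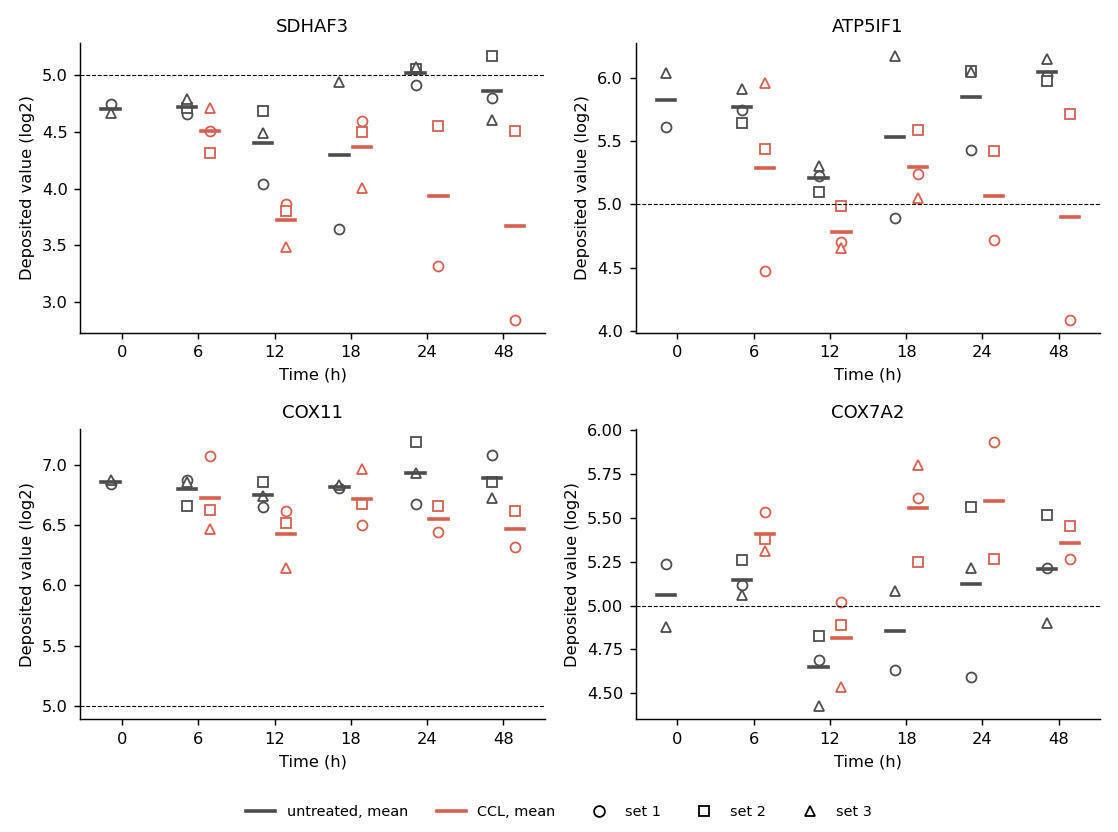
Deposited value (log2, vertical axis) of SDHAF3, ATP5IF1, COX11 and COX7A2 on every array by time (h, horizontal axis), untreated in grey and CCL in red, with set number by symbol, group means as bars and the filter line at log2 5 dashed. For SDHAF3 and ATP5IF1 the lowest array at 48 h is CCL set 1, at 2.84 and 4.09, while CCL set 2 is at 4.50 and 5.72.

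The subunits of complexes III, IV and V, taken as a list of 24 genes with 15 tested, had 1 gene that passed, COX7A2, and a median mean difference of 0.08. The differences were above 0 for 11 of the 15, beside 52.1% of all genes tested. In complex III, 4 of 5 subunits were tested and none passed, with values between 0.22 ± 0.10 (SE) for UQCRC1 and -0.03 ± 0.14 for UQCRHL (limma adjusted p = 0.0994 and 0.888). UQCRC1 had a 95% confidence interval of 0.02 to 0.41, and its CCL arrays lay above all untreated arrays at 18 h, with 8.13, 8.22 and 8.39 against 7.88 and 8.10, and at 48 h, with 8.25 and 8.50 against 8.19, 8.09 and 7.85. UQCRC2, the other core protein, gave 0.06 with an interval of -0.13 to 0.26. The hinge protein UQCRH gave 0.06 with an interval of -0.26 to 0.37.

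In complex IV, 9 of 17 measured subunits were tested. The values ran from 0.35 for COX7A2 to -0.11 ± 0.12 for COX7C (limma adjusted p = 0.545), and 7 of the 9 were above 0, with a median of 0.16. COX8A was at 0.27 ± 0.11 and COX5A at 0.23 ± 0.10, with limma adjusted p of 0.0842 and 0.111. The CCL arrays of COX5A at 48 h read 10.19 and 9.77 against 9.65, 9.66 and 9.38. COX4I1, a subunit needed early in the assembly of the enzyme, gave 0.07 with a 95% confidence interval of -0.13 to 0.28, so a mean change of COX4I1 beyond 0.28 on the log2 scale lies outside the interval. COX6A1, COX5B and COX6B1 gave 0.12, 0.18 and 0.16. COX6A1 has a second, dim probe set with a mean level of 2.06, whose mean difference was -0.04. COX7A2L, a relative of subunit 7A that links complexes III and IV into supercomplexes, gave a value of 0.00 rounded, with an interval of -0.25 to 0.25. The small membrane subunits of complex V gave 0.08 ± 0.10 for ATP5MK and -0.02 ± 0.13 for ATP5MJ (limma adjusted p = 0.606 and 0.943).

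Of 12 assembly factors measured, 9 were tested and 2 passed, SDHAF3 and COX11, both lower, beside the 24.6% of all genes that passed and the 11% that passed lower. SDHAF3 passed the filter through untreated arrays alone, which favours a lower value with CCL. Its call and its place below 0 in the counts that follow therefore lend no support, and COX11 was close to the threshold. All 9 mean differences were below 0, from -0.62 for SDHAF3 to -0.04 for SDHAF1 and NDUFAF7, with a median of -0.18, while 47.9% of all genes tested were below 0. All 9 were also below 0 at 6 h and at 48 h, with deposited and with quantile-normalized values. Of all genes, 58.8% and 71.6% were below 0 at these times with deposited values, and 50.4% and 54.2% after quantile normalization. At 18 h, 7 of the 9 were above 0 with deposited values and 3 after quantile normalization, beside 87% and 50.2% of all genes. The difference between subunits and assembly factors was not tested. SDHAF2, which attaches the flavin to SDHA, was at -0.19 ± 0.08 (limma adjusted p = 0.0762), and passed after quantile normalization at -0.21 (limma adjusted p = 0.0287). Its log2 values at 12 h were 5.73, 5.73 and 5.85 with CCL against 6.07, 6.15 and 6.13, a gap wider than the spread within either arm. The complex I factors NDUFAF8 and NDUFAF7, the second a methyltransferase that acts on a core subunit, gave -0.19 ± 0.11 and -0.04 ± 0.14 (limma adjusted p = 0.228 and 0.864). In complex IV, COX18, which inserts a mitochondrially made subunit into the membrane, gave -0.18, COX20, a chaperone of the same subunit, -0.09, and COX19, a copper-related factor, -0.09. Of the non-coding RNA genes, NDUFB2-AS1 was the one tested, at -0.09 ± 0.14 (limma adjusted p = 0.712). It is antisense to NDUFB2, which was not analysed here.

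Over time, the medians of the 26 genes and of all genes tested were both highest at 18 h and lowest at 48 h. The median differences of the 26 genes were -0.14 at 6 h, -0.03 at 12 h, 0.30 at 18 h, -0.01 at 24 h and -0.31 at 48 h, and those of all genes tested were -0.06, -0.06, 0.41, 0.04 and -0.26. After quantile normalization the members' medians were -0.06, 0.00, -0.05, -0.06 and -0.09. At 18 h, 21 of 26 genes were higher in CCL-treated cells with deposited values and 10 of 26 after quantile normalization. The shares of all genes above 0 were 87% and 50.2%. So the direction of the group at 18 h flips with the scaling. The members' median on single arrays was 5.63 on the untreated set 1 array at 18 h and 6.63 on CCL set 3 at 18 h, the arrays with the lowest and highest median over all probe sets, where all genes tested had medians of 5.64 and 6.62. The lowest members' median was on CCL set 3 at 12 h, at 5.47 against 5.91 over all genes tested. CCL set 2 at 12 h read 5.62 against 5.99, and CCL set 1 at 24 h read 6.25 against 6.04, so the members did not follow the other genes on every array. The subunits' medians after quantile normalization were 0.00, 0.10, -0.04, 0.11 and 0.18 over the 5 times, and those of the assembly factors were -0.12, -0.19, -0.21, -0.16 and -0.22.

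**Figure D4:**
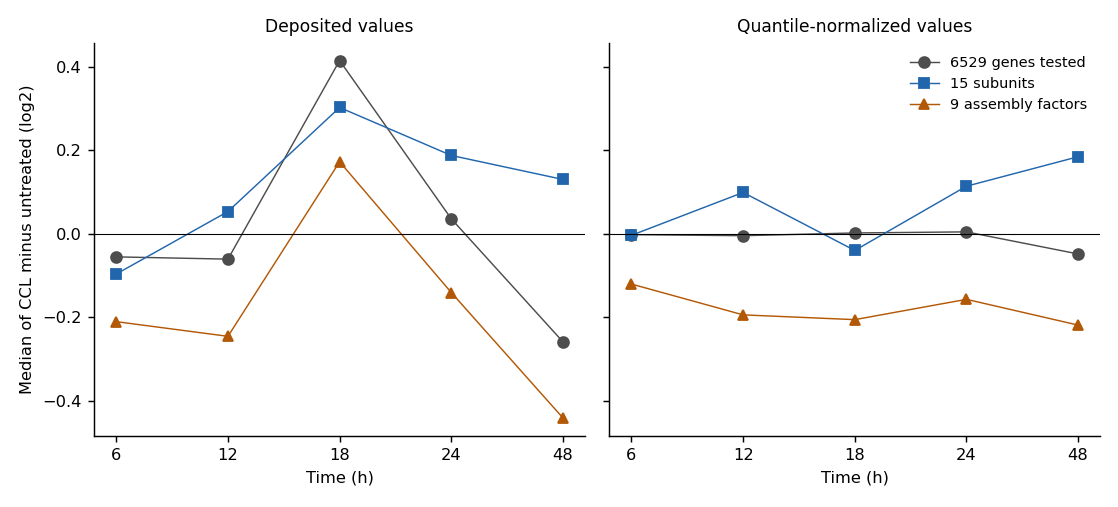
Median difference between CCL-treated and untreated cells (log2, vertical axis) at each time (h, horizontal axis) for 15 subunits of complexes III, IV and V, 9 assembly factors and all 6529 genes tested, with deposited values left and quantile-normalized values right. All lines peak at 18 h with deposited values, at 0.41 over all genes, and the peak is absent at right, where the assembly factors stay between -0.12 and -0.22.

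The differences of single genes between times did not pass either. Neither the F-test of whether the CCL difference varied over the 5 times nor the change of that difference from 6 h to 48 h called any of the 26 genes (limma), and untreated cells at 48 h against 6 h gave no call either. In each of these 3 comparisons 0.0153% of all genes passed, which is 1 gene. At an unadjusted p under 0.05, a looser threshold, these comparisons counted 1, 0 and 0 of the 26, and the share of all genes at that threshold is not given here. The lowest adjusted p by limma's F-test were 0.45 each for COX18, COX20, ATP5MJ and ATP5MK. COX18 read -0.61 at 12 h, 0.50 at 18 h and -0.56 at 48 h, and its arms did not overlap at those times. For 18 h, the value of COX18 after quantile normalization was 0.07. Over the 5 times, 5 genes were higher in CCL-treated cells at every time (COX4I1, COX5A, COX6A1, COX7A2 and UQCRC1) and 2 were lower (ATP5IF1 and COX11), which is 19.2% and 7.69% of the 26, beside 15% and 8.5% of all genes. After quantile normalization COX5A and COX7A2 were higher at every time, and ATP5IF1, COX11, COX19, COX7C, NDUFAF8, SDHAF2 and SDHAF3 were lower. These are 7.69% and 26.9% of the 26, beside 17.8% and 18.8% of all genes on the same values. SDHAF3 passed the filter through untreated arrays alone, so its place among the lower genes lends no support.

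**Figure D5:**
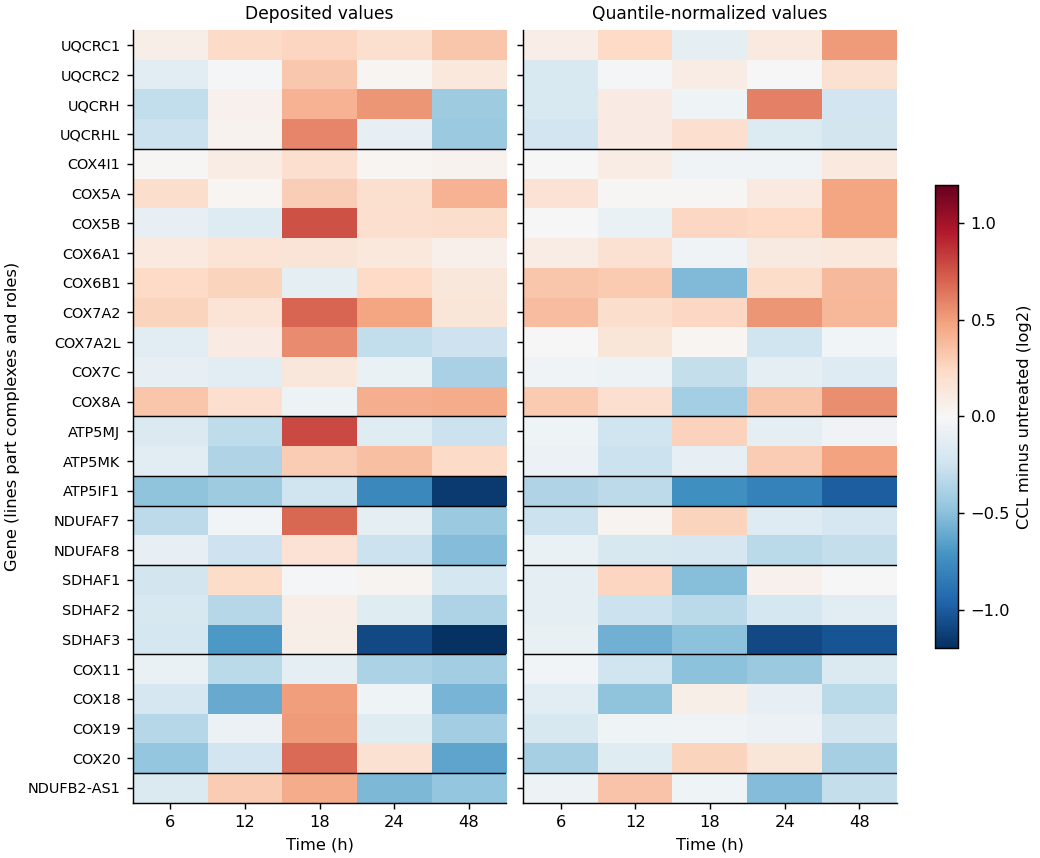
Difference between CCL-treated and untreated cells (log2, colour) for the 26 genes tested (rows, lines part complexes and roles) at 5 times (h, columns), with deposited values left and quantile-normalized values right. ATP5IF1 and SDHAF3 hold the deepest blue at 24 h and 48 h in both panels, and most of the red column at 18 h is gone at right.

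Counts of genes whose arms did not overlap stayed near or below the share of all genes for higher values except at 48 h, and for lower values at all times but 24 h. CCL arrays were all higher for 1 gene at 6 h (COX7A2; 6.23% of all genes), 2 at 12 h (SDHAF1 and NDUFB2-AS1; 11.8%), 3 at 18 h (UQCRC1, COX7A2 and COX18; 32.5%), 2 at 24 h (UQCRH and COX5B; 13.9%) and 5 at 48 h (UQCRC1, COX5A, COX5B, COX8A and ATP5MK; 10.3%). As shares of the 26 genes these are 3.85%, 7.69%, 11.5%, 7.69% and 19.2%. CCL arrays were all lower for 1 gene at 6 h (SDHAF2; 13.8% of all genes), 5 at 12 h (SDHAF2, SDHAF3, COX11, COX18 and ATP5IF1; 21.4%), none at 18 h (2.56%), 3 at 24 h (SDHAF3, COX11 and ATP5IF1; 5.39%) and 7 at 48 h (SDHAF2, SDHAF3, UQCRHL, COX7A2L, COX11, COX18 and ATP5IF1; 29.5%). These are 3.85%, 19.2%, 0%, 11.5% and 26.9% of the 26. SDHAF3, counted at 12, 24 and 48 h, passed the filter through untreated arrays alone. Its place in these counts therefore lends no support, also at 24 h, where it is 1 of the 3.

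Genes of mitochondrial energy metabolism outside the symbol rule were counted in the same way for the mean of the 5 differences. Among 48 further electron transport and assembly genes, 38 were measured and 32 tested, 2 rose and 5 fell, which is 21.9% of those tested beside 24.6% of all genes. LYRM7, which guards the iron-sulfur subunit of complex III before its insertion, was at -0.70 ± 0.21 (SE), and COA5, a complex IV assembly factor, at -0.60 ± 0.18 (limma adjusted p = 0.0165 and 0.0150). Both are dim, with mean log2 values of 4.92 and 4.69, under the filter line at log2 5. ECSIT, a complex I assembly factor, was at 0.38 ± 0.11 and UQCC2, a complex III assembly factor, at 0.30 ± 0.11 (limma adjusted p = 0.0157 and 0.0431). The other genes that fell were TIMMDC1 at -0.45, NUBPL at -0.58 and TACO1 at -0.31 (limma adjusted p = 0.00195, 0.0400 and 0.0349). They were not followed through the alternative fits. The calls of LYRM7, COA5, ECSIT and UQCC2 rest on few arrays. LYRM7 lost it without CCL set 1 at 24 h (-0.50) or at 48 h (-0.52), COA5 without CCL set 1 at 48 h (-0.52), ECSIT without untreated set 1 at 18 h (0.28), and UQCC2 in 16 of 27 fits that left out 1 array. ECSIT also lost it without the 6 arrays that stand apart (0.21, limma adjusted p = 0.170), without untreated set 1 and CCL set 3 at 18 h (0.26) and with array quality weights (0.25). UQCC2 also lost it under these 3 settings, with no filter, and with a common array median. CYC1, the cytochrome c1 subunit of complex III, was at 0.27 ± 0.13 (limma adjusted p = 0.137), while cytochrome c itself (CYCS) was not analysed here.

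Of 18 regulators of mitochondrial biogenesis, 7 were measured and 6 tested, and 2 rose. The nuclear receptor ESRRA was at 0.53 ± 0.11 (limma adjusted p = 0.000753), and POLRMT, the RNA polymerase of mitochondrial DNA, at 0.33 ± 0.10 (limma adjusted p = 0.0137). ESRRA is dim, with a mean log2 value of 4.94, under the filter line at log2 5. ESRRA kept its call in the alternative fits that tested it, which leaves out the filter at log2 6. POLRMT lost it without the 6 arrays that stand apart (0.26, limma adjusted p = 0.0896) and with array quality weights (0.22, limma adjusted p = 0.259). The transcription factor NRF1 was at -0.13 (limma adjusted p = 0.494), and PPARGC1A and TFAM were not analysed here. Of 25 genes of the tricarboxylic acid cycle and pyruvate oxidation, 13 were measured and tested. PC, which makes oxaloacetate from pyruvate, rose by 0.75 ± 0.14 and MPC2, a subunit of the mitochondrial pyruvate carrier, fell by 0.37 ± 0.11 (limma adjusted p = 0.000294 and 0.0125). PDK1 and PDK4 were not analysed here. Of 18 glycolytic genes, 9 were measured and 6 tested, and HK2, the hexokinase of many tumours, rose by 0.53 ± 0.14 (limma adjusted p = 0.00724), a call that was lost with array quality weights (0.38, limma adjusted p = 0.136). The shares that passed were 33.3% of the regulators, 15.4% of the tricarboxylic acid cycle list and 16.7% of the glycolytic genes tested, again beside 24.6% of all genes, and each is a share of few genes.

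Promoters were searched because nuclear genes of the respiratory chain are known to be bound by NRF1 and by ETS factors such as GABPA. The windows are the 250 bases before the gene's start in RefSeq (GRCh38.p14), searched on both strands for the letters GCGCANGC (NRF1), CCGGAAG (ETS) and AAGATGGC (YY1), with no overlap between matches in the windows shown. Of the 37 coding genes, 31 matched an entry. The NRF1 letters were in 13 of 31 windows (41.9%) and in 10.9% of 27305 windows of all genes, the ETS letters in 8 (25.8%) and in 8.82%, and the YY1 letters in 0, beside 1.37%. Windows with any of the 3 were 16 of 31 (51.6%), beside 18.9%. The 31 windows are of protein-coding genes, while the 27305 were not limited to protein-coding genes. The shares are therefore of unlike sets of genes, and the difference between them was not tested. A match is a string of letters and not a shown binding site. The windows of 3 of the 4 genes that passed are shown, with matches in capitals, to set the gene with the lowest mean difference beside the other two; COX11 is named only.
SDHAF3: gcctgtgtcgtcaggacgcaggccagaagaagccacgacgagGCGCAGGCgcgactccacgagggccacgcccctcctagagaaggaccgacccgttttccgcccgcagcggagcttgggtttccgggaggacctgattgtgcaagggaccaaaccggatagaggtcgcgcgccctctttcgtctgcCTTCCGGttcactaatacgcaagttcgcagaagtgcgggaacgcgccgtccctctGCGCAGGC
ATP5IF1: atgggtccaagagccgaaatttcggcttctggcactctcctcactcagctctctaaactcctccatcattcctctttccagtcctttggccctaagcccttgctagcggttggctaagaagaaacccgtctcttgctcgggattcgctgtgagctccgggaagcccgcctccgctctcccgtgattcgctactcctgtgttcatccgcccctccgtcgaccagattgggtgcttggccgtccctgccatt
COX7A2: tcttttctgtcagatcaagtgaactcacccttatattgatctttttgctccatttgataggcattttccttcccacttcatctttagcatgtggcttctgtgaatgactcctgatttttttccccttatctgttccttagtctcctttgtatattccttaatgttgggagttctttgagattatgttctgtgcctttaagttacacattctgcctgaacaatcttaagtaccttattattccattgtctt
The SDHAF3 window (chr7:97117448-97117697, plus strand) holds the NRF1 letters at -208 to -201 and at -8 to -1, and the ETS letters on the opposite strand at -63 to -57, counted back from the start. The windows of ATP5IF1 (chr1:28235874-28236123, plus strand) and COX7A2 (chr6:75250299-75250548, minus strand) hold none of the 3 strings. The mean differences of SDHAF3 and ATP5IF1 were -0.62 and -0.61. Like SDHAF3, the genes SDHAF2, UQCRC1, COX6A1 and COX18 carry the NRF1 letters, with mean differences of -0.19, 0.22, 0.12 and -0.18. COX5B, COX6B1 and ATP5MJ carry them too, with 0.18, 0.16 and -0.02. These are the 8 tested genes with the NRF1 letters. A link between the letters and the differences was not tested.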

How the data were processed

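RNA of HepG2 cells was measured on 29 arrays, 13 with CCL and 16 without. The authors deposited a log2 value for each probe set. The submitters' processing notes name RMA and Affymetrix Expression Console 1.1. Array medians differ, and which arrays were normalized together is not given in the sources used here. Of 53617 probe sets, 16098 had a gene symbol in the probe table and all matched RefSeq (GRCh38.p14) by gene ID; the other 37519 were not used here. They gave 14884 genes, and the 6529 that reached above log2 5 on 2 or more arrays were tested.

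A linear model with 1 mean for each of 11 groups was fitted to all 29 arrays (limma 3.58.1, R 4.3.3, lmFit and eBayes), so every gene has 1 spread pooled over groups. Two-sided p-values carry the Benjamini-Hochberg adjustment over all 6529 genes, and "passed", "called", "rose" and "fell" mean adjusted p under 0.05. Comparisons were CCL against untreated cells at 5 times, the mean of those 5 differences, an F-test over them, the 48 h against the 6 h difference, and untreated cells at 48 h against 6 h. Errors are standard errors, and intervals are 95%. The model was also run on simulated data, with noise drawn independently for each gene and no shift shared within an array. That run does not cover the differences between arrays described above.

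The rule for named genes was the 4 highest and 4 lowest that passed in a comparison, the highest and lowest mean difference in each list, the 4 smallest F-test p-values, a set of core subunits, and, outside the symbol rule, up to 2 passing genes at each end of a list and 7 fixed genes. Other members are named to account for each of the 40, and other passing electron transport genes to complete that list. The genes and lists were chosen with earlier results of these data known. Alternatives were other scalings, filters, probe set rules, variance models, set as a block, and leaving out arrays. Residuals of arrays with the same set number and time correlated between -0.07 and 0.44, above 0.1 in 9 of 12 pairs, so pairing by set was not taken as established. The highest correlation between any 2 arrays was 0.989, and none were identical.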

Additional observations from a re-analysis of the deposited data

How the results depend on the processing

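The mean differences of SDHAF3 and ATP5IF1 kept their direction and their call in every alternative run (SDHAF3 was not tested under the filter at log2 6). In the main model 3 members were called lower in that mean and 1 higher, beside 11% and 13.6% of all genes. Both counts changed when single arrays were left out. The settings in which no member was called higher in the mean include a filter at log2 6, which left COX7A2 untested, and array quality weights. COX7A2, at 0.35 in the main model, was at 0.17 without the 6 arrays that stand apart. Without untreated set 1 and CCL set 3 at 18 h it was at 0.28. COX7A2 lost its call in both of these fits and in 3 of the 27 fits that left out 1 array. At 12 h, where none was called, array weights called 2 higher and 4 lower, the compared arrays alone called 1 lower, and the fit without the 6 arrays called 3 lower, where these fits called 31.1%, 10.1% and 11.9% of all genes. With set as a replicate block, fixed or random, 1 member (ATP5MJ) was called higher at 18 h and 2 (SDHAF3 and ATP5IF1) lower at 48 h, where the fixed block called 24.1% and 13.8% of all genes and the random block 23.9% and 13.7%. The fixed block also called 1 lower at 24 h (SDHAF3), as array weights did (NDUFB2-AS1), beside 8.04% and 5.71% of all genes. Without untreated set 1 and CCL set 3 at 18 h, the difference of SDHAF3 at 48 h was -1.19, the same as in the main model. That fit leaves 1 untreated array at 18 h, and SDHAF3 passed the filter through untreated arrays alone. Leaving out single arrays gave 0 to 9 members higher at 18 h, 0 to 1 lower at 24 h, 0 to 5 lower at 48 h, 0 to 1 lower in the change from 6 h to 48 h and 0 to 4 by the F-test. The 9 and the 4 came without untreated set 3 at 18 h, which leaves set 1 as that group's only array, assumed to vary like other groups, and the 5 without CCL set 2 at 48 h. Leaving out CCL set 2 at 48 h likewise leaves set 1 as that group's only array. Both remaining set 1 arrays are among the 6 that stand apart. Shares of all genes called in the fits that left out 1 array are not given here. Their counts of members are therefore not set against other genes and are not a result about the members. The members' median at 18 h, 0.30, was -0.048 after quantile normalization, -0.18 with a common array median, and -0.11 without the 6 arrays or without the 18 h pair alone. Some mean differences near 0 changed sign: over the fits that left out 1 array, of which the fit without untreated set 3 at 18 h gave the highest value, ATP5MJ ran from -0.147 to 0.116, COX19 from -0.265 to 0.084 and COX7A2L from -0.147 to 0.143. Without the 6 arrays ATP5MK was -0.030 and COX5B -0.067, and without the 18 h pair COX5B was -0.016 and UQCRH -0.119. The causes were not tested. The fits without the 6 arrays and without the 18 h pair were chosen after the data were seen. The estimate of array weights stopped before full convergence.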
